A study of Mus musculus with 4 samples.

Results

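The 10 genes described here, Cdkn1a, Mdm2, Pmaip1, Bbc3, Ccng1, Trp53inp1, Phlda3, Eda2r, Aen and Perp, are targets of the transcription factor p53, taken by symbol from a count table of 35939 gene rows. All 10 had a row, and all 10 were among the 13140 genes left after the filter on low counts. They were measured by mRNA sequencing in erythroid progenitors, the precursors of red cells, obtained from C57BL/6 fetal livers of embryonic day 13.5 by sorting CD71+, TER119- cells (CD71 is the transferrin receptor, TER119 a later erythroid antigen). The mutant group (2 libraries) was Rcor1-/-, without a wild-type copy of the gene for the CoREST scaffold protein, which joins histone deacetylases and the demethylase Kdm1a. The control group (2 libraries) mixed Rcor1+/+ and Rcor1+/- embryos; their proportion was not stated. Each library pooled RNA of several livers, so the spread within a group is between pools and not between embryos. The genotypes given for both groups name Rcor1 alone.

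p53 is held at a low level in unstressed cells by the ubiquitin ligase Mdm2, which is itself a p53 target and so closes a feedback loop. When DNA damage or other stress frees p53, it binds DNA and switches on genes that stop the cell cycle, such as Cdkn1a, genes that start cell death, such as Pmaip1 and Bbc3, and genes that restrain p53 again. The protein is controlled mostly by its stability and modification, so the level of its own transcript is a poor guide to its activity. Several of its targets are also driven by other transcription factors. In red cell precursors p53 is known for its part in the anaemia that follows faulty ribosome production.

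The stretches of promoter shown first are those in which a p53 half-site, the 10-base unit that p53 binds in pairs, was found by sequence alone. The 250 bases before each annotated start in RefSeq (build GRCm38.p6) were searched on both strands; 7 of the 10 genes had entries, 11 in all because several have more than 1 start, and Pmaip1, Trp53inp1 and Perp had none. Capitals mark the half-sites, and each stretch is written 5′ to 3′ on the strand of its gene. They come from chr17:29090866-29090977 (plus strand) for Cdkn1a, chr10:117710895-117710984 (minus strand) for Mdm2, chr11:40755422-40755511 (minus strand) for Ccng1 and chr7:78895927-78895956 (plus strand) for Aen.
Cdkn1a: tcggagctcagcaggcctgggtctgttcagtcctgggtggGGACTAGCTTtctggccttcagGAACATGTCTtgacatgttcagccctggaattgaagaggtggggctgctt
Mdm2: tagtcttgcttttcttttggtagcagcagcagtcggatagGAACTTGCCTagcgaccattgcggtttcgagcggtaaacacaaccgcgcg
Ccng1: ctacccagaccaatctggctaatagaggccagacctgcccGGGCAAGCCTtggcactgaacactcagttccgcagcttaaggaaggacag
Aen: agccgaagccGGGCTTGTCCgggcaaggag

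The 2 Cdkn1a half-sites began 73 and 51 bases before the upstream start, and the second lay 2841 bases before the downstream start of the same gene. The Mdm2 half-site began 186 bases and the Ccng1 half-site 185 bases before the start. The Aen half-site began 121 bases before the downstream of 2 annotated starts of that gene, and lay just after the upstream one. A half-site was found in 4 of the 11 entries, and in 7.13% of all 32851 entries of the same length. A match is a description of letters and not a measured binding site. Of other motifs, AGATAA (the GATA motif) and AATCAC (a core of the Gfi1 motif) were in 0 of the 11 entries, and in 9.99% and 9.14% of all entries. The GC box GGGCGG was in 8 of the 11 entries, of 6 genes, and in 32.74% of all entries, and TATAAA in 1, that of Eda2r, and in 12.37% of all.

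Of the 10 p53 targets, 9 were higher in the Rcor1 mutant progenitors and Aen alone was lower, in a call that depended on scaling. In 5 of them, Cdkn1a, Pmaip1, Eda2r, Perp and Trp53inp1, the mutant level was more than 2-fold that of controls, and Bbc3, Ccng1, Phlda3 and Mdm2 changed by less. Over all 13140 tested genes, 28.3% were called higher and 29.2% lower, 57.5% in either direction, and 11.7% were called and at least 2-fold higher; a gene was called when its adjusted p was under 0.05. The median log2 fold change, mutant over control, was 0.88 for the 10 genes and 0.01 for all tested genes. In all 10 genes the mutant libraries did not overlap the control libraries, as in 77.9% of all tested genes; 9 of the 10 lay above, as did 39.5% of all. Levels are CPM, the counts divided by the library's total times its TMM scaling factor, with the SD over n = 2 libraries, and changes are log2 fold changes from edgeR's quasi-likelihood test with their standard error and Benjamini-Hochberg adjusted p. Sorted cells were measured in bulk, so a change in the share of cells that express a gene and a change in its RNA per cell cannot be told apart.

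**Figure D1:**
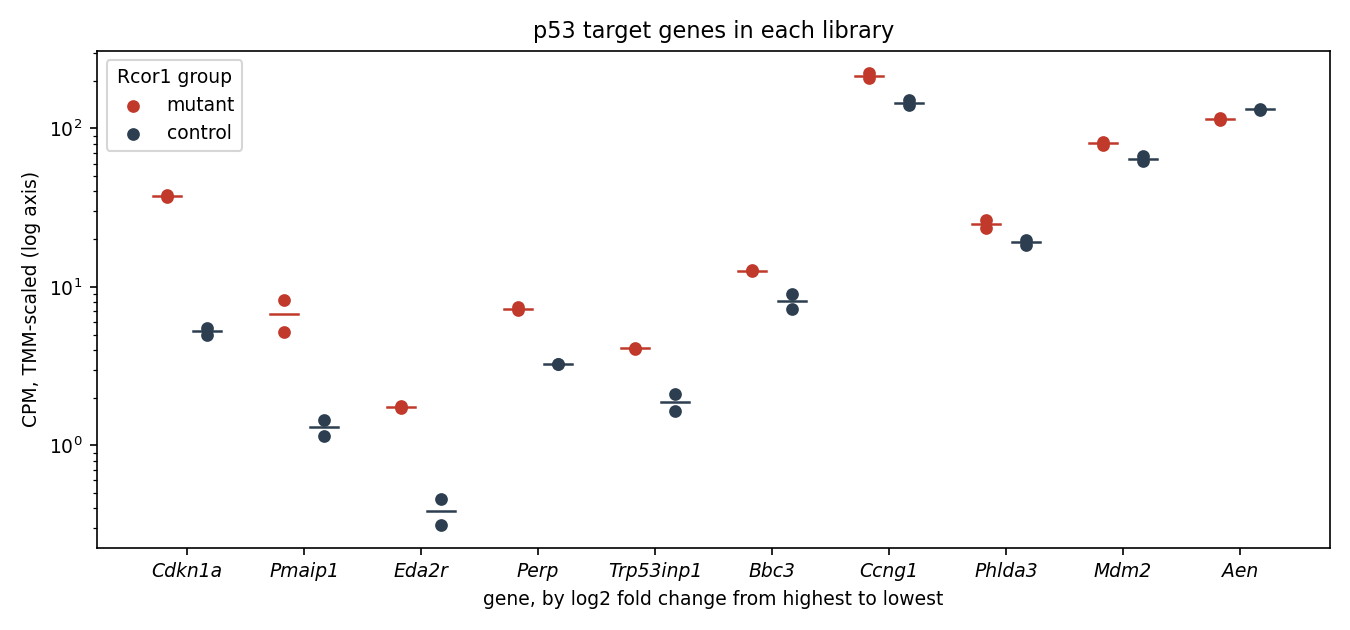
CPM (log axis) of each p53 target gene in the 2 mutant and 2 control libraries, with a point for each library and a line at the group mean. The mutant points of 9 genes lie above their control points, by most for Cdkn1a, and those of Aen lie below; the 2 mutant points of Pmaip1, at 8.24 and 5.15 CPM, stand furthest apart.

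Rcor1 itself (ENSMUSG00000037896) had 2061 and 1240 counts in the mutant libraries, against 4083 and 3807 in the control libraries, and changed by -1.09 ± 0.06 (edgeR adjusted p = 4.6e-11). Counts per gene cannot tell transcript of a mutated Rcor1 copy from wild-type transcript. The mutant libraries held 25186819 and 15053229 counts and the control libraries 26892375 and 22817080, so that a single count was worth 0.0378 and 0.0636 CPM in mutants, and 0.0391 and 0.0459 CPM in controls. All 9 erythroid markers, among them Tfrc, Gata1, Klf1 and Epor, were detected in both groups, 8 of them lower in mutants and Kit not called. Over all tested genes, 29.2% were called lower. The median log2 fold change of the 9 markers was -0.55, and 0 of them were lower by at least 2-fold. Scaling by library totals alone in place of TMM put the median log2 fold change of all tested genes at 0.15 in place of 0.01. None of the 10 genes changed direction under the 4 scalings tried.

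Among the genes of cell cycle arrest, Cdkn1a, which encodes the cyclin-dependent kinase inhibitor p21, had the largest change of the 10. Cdkn1a (ENSMUSG00000023067) had 1005 and 577 counts in mutants and 141 and 109 in controls, or 38.0 and 36.7 CPM in mutants and 5.51 and 4.998 CPM in controls. Both mutant libraries stood far above both control libraries, and within each group the libraries were close. The group means were 37.3 ± 0.892 CPM in mutants and 5.26 ± 0.364 CPM in controls (SD, n = 2 each), a log2 fold change of 2.83 ± 0.10, or 7.09-fold (edgeR adjusted p = 3.34e-13). This put it above 97.8% of all tested genes. In GENCODE M21, 273 bases of the exons of Cdkn1a overlap those of AC167363.2, on the opposite strand; with no statement on whether counting used strand, reads of the pair cannot be told apart there.

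Ccng1 encodes cyclin G1, which recruits a phosphatase to Mdm2 and is a p53 target in many tissues. Ccng1 (ENSMUSG00000020326) had 5890 and 3270 counts in mutants and 3584 and 3272 in controls, or 223 and 208 CPM in mutants against 140 and 150 CPM in controls. The groups did not overlap, and the rise was modest beside that of Cdkn1a: 0.57 ± 0.05 on the log2 scale, 1.49-fold (edgeR adjusted p = 6.98e-08). Trp53inp1, which encodes a stress-induced nuclear protein that promotes p53 phosphorylation and autophagy, was scarce. Trp53inp1 (ENSMUSG00000028211) had 108 and 65 counts in mutants and 42 and 46 in controls, or 4.08 and 4.14 CPM in mutants against 1.64 and 2.11 CPM in controls. Both mutant values lay well above the higher control value, and the log2 fold change was 1.14 ± 0.20 (edgeR adjusted p = 0.000138), or 0.95 to 1.30 with each library left out in turn.

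Of the genes of cell death, those for the BH3-only proteins Pmaip1 (Noxa) and Bbc3 (Puma), which neutralise the survival proteins of the Bcl2 family, both rose, by different amounts. Pmaip1 (ENSMUSG00000024521) had 218 and 81 counts in mutants and 37 and 25 in controls, or 8.24 and 5.15 CPM in mutants and 1.45 and 1.15 CPM in controls. Its mutant libraries differed from each other, with a ratio of mutant replicate 1 to mutant replicate 2 of 1.60 (95% exact binomial interval 1.23 to 2.09, which covers counting error only), and both remained above the controls. The log2 fold change was 2.40 ± 0.25 (edgeR adjusted p = 2.29e-06), and it was 1.98 without mutant replicate 1 and 2.66 without mutant replicate 2. Bbc3 (ENSMUSG00000002083) had 333 and 200 counts in mutants and 230 and 159 in controls, or 12.6 and 12.7 CPM in mutants and 8.99 and 7.29 CPM in controls. Here the mutant libraries agreed closely and the control libraries were further apart. Bbc3 changed by 0.63 ± 0.12 (edgeR adjusted p = 0.000372), by 0.79 without control replicate 1 and by 0.48 without control replicate 2.

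Perp and Eda2r encode membrane proteins: Perp is a tetraspan protein needed for p53-dependent death and also part of desmosomes, and Eda2r is a receptor of the TNF receptor family that binds ectodysplasin A2. Perp (ENSMUSG00000019851) had 189 and 117 counts in mutants and 83 and 71 in controls, or 7.14 and 7.44 CPM in mutants and 3.25 and 3.26 CPM in controls. The libraries of each group were nearly level, and the change was 1.16 ± 0.15, or 2.23-fold (edgeR adjusted p = 6.27e-06). Eda2r was the scarcest of the 10 genes, with 47 and 27 counts in mutants and 8 and 10 in controls, or 1.78 and 1.72 CPM in mutants and 0.313 and 0.459 CPM in controls. Both mutant libraries of Eda2r (ENSMUSG00000034457) and only 1 control library were at or over 0.417 CPM, the level at which the filter counted a library, so it was tested because mutants expressed it. Its log2 fold change was 2.19 ± 0.35 (edgeR adjusted p = 4.08e-05). From the summed counts its ratio was 4.62 (95% exact binomial interval 2.73 to 8.21, counting error only).

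Aen encodes a nuclease that p53 induces and that promotes death by cutting nucleic acid, and it differed from the other 9 in direction. Aen (ENSMUSG00000030609) had 3006 and 1840 counts in mutants and 3376 and 2866 in controls, or 114 and 117 CPM in mutants against 132 and 131 CPM in controls. On the TMM scale both mutant libraries lay slightly below both control libraries, a change of -0.19 ± 0.05, or 0.875-fold (edgeR adjusted p = 0.00342). The call depended on scaling and on 1 library: adjusted p was 0.354 with library totals alone (-0.06), 0.0571 with upper quartile scaling (-0.12) and 0.0552 without mutant replicate 1 (-0.17). With a fold so near 1 and a call that 3 settings removed, these data do not settle whether the Aen transcript fell or stayed level, but it was not called higher under any setting tried.

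Among the genes of feedback and signalling, Mdm2 and Phlda3 rose by small amounts. Mdm2 (ENSMUSG00000020184) had 2169 and 1237 counts in mutants and 1587 and 1451 in controls, or 82.0 and 78.7 CPM in mutants and 62.1 and 66.5 CPM in controls. The gap between the groups was wider than the gap within either, and the change was 0.32 ± 0.06, or 1.25-fold (edgeR adjusted p = 0.000306). Phlda3, a pleckstrin homology domain protein that competes with the kinase Akt for membrane lipids, gave the least secure of the rises. Phlda3 (ENSMUSG00000041801) had 700 and 368 counts in mutants and 507 and 399 in controls, or 26.4 and 23.4 CPM in mutants and 19.8 and 18.3 CPM in controls. It changed by 0.39 ± 0.09 (edgeR adjusted p = 0.00132), and without mutant replicate 1 by 0.30 with adjusted p = 0.052.

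**Figure D2:**
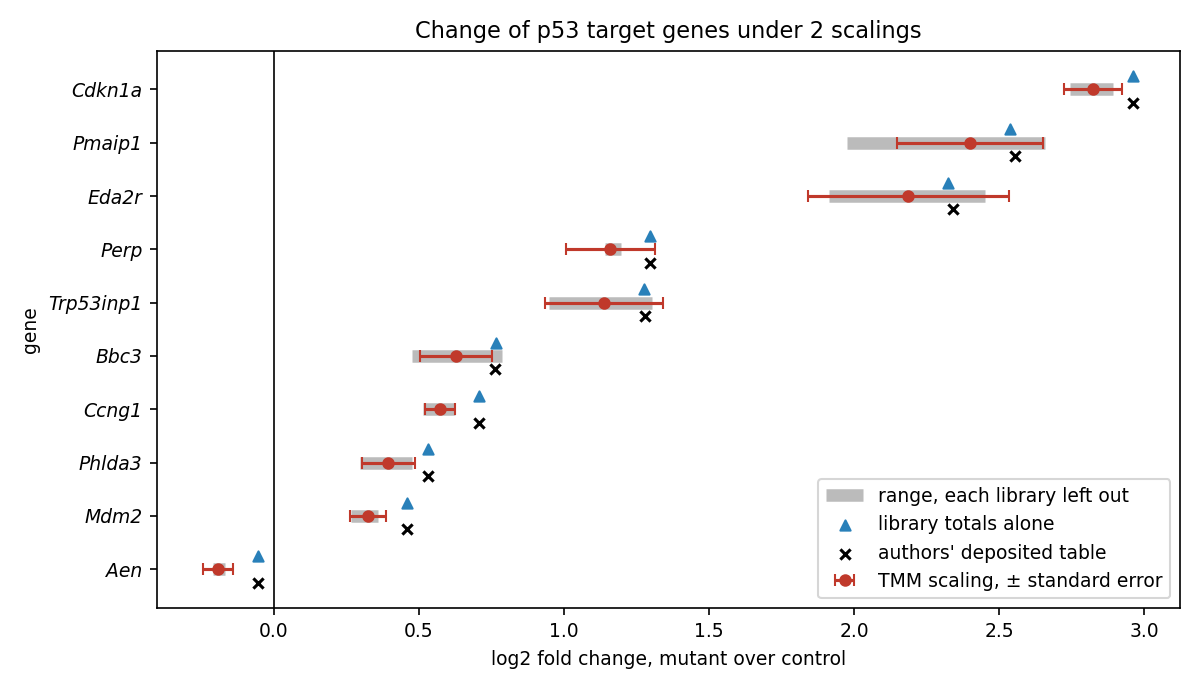
Log2 fold change of mutant over control for each p53 target gene, with the edgeR standard error (red), the range when each library was left out in turn (grey), the value with library totals alone (triangles) and the value in the authors' deposited table (crosses). All values of 9 genes lie above 0 and all values of Aen below it, and scaling by library totals shifts each gene to the right by about the same amount.

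The authors' deposited table gave the same direction for all 10 genes. In the authors' deposited table Cdkn1a had a log2 fold change of 2.96, Pmaip1 2.56, Eda2r 2.34, Perp 1.30, Trp53inp1 1.28, Bbc3 0.76, Ccng1 0.71, Phlda3 0.53 and Mdm2 0.46, and Aen had -0.06 with an adjusted p of 0.705. Each value of the authors' deposited table was 0.14 to 0.16 above that on the TMM scale here, and within 0.02 of that with library totals alone. Over its 13234 genes, the authors' deposited table had a median of 0.146, with 4983 genes called higher and 2338 lower at an adjusted p under 0.05.

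The 5 genes that rose at least 2-fold were also the 5 with the lowest control level per length. In CPM per kilobase of merged GENCODE M21 exons, mutants had 10.5 and controls 1.48 for Cdkn1a, 3.74 and 1.67 for Perp, 2.45 and 0.475 for Pmaip1, 0.634 and 0.290 for Trp53inp1 and 0.297 and 0.0655 for Eda2r. The other 5, on the same per-kilobase scale, had 61.3 in mutants and 41.3 in controls for Ccng1, 19.9 and 22.7 for Aen, 16.0 and 12.2 for Phlda3, 15.8 and 12.7 for Mdm2, and 5.96 and 3.83 for Bbc3. Cdkn1a was the fifth of the 10 in mutants, above Bbc3 and Perp, and the seventh in controls, below both, while Ccng1 was the highest and Eda2r the lowest in both groups. Phlda3 and Mdm2 overlapped between libraries in both groups, so their order is not set; no other neighbours in the order overlapped in either group. Across the 10 genes, Spearman's rho between control CPM and log2 fold change was -0.78, and across all 13140 tested genes it was -0.48; the control level enters both measures, and genes are not replicates. Of 4269 tested genes with a control mean under 6 CPM, 30.2% were called and at least 2-fold higher. Of the 8871 genes at or above that limit, which was chosen after these values were seen, 2.72% were. The filter asked for 0.417 CPM in only 2 libraries, so genes scarce in controls could enter through the mutants, as Eda2r did. This selection favours rises among low genes, so the shares and both rho values may partly reflect it. By how much was not tested.

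The nearest patterns to that of Cdkn1a, by Euclidean distance of log2(CPM + 1) over the 4 libraries, were those of Klf6 (distance 0.312), a Krüppel-like zinc finger factor, S100a9 (0.320), a calcium-binding protein of neutrophils and monocytes, and Padi3 (0.335), a peptidylarginine deiminase. Klf6 had 34.3 and 35.6 CPM in mutants and 6.02 and 6.14 CPM in controls. With 4 libraries in 2 groups, such likeness says little beyond a similar level and a similar change.

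The upstream pathway had changes in both directions. Of 19 tested genes that encode p53, its family, its modifiers and its upstream kinases, 4 rose, 6 fell and 9 were not called, a share called close to the 57.5% of all tested genes, with a median of -0.04. The balance depended on scaling: 6 were higher and 5 lower with upper quartile scaling (median 0.04), and 6 higher and 2 lower with library totals alone (median 0.10). Trp53, the p53 gene, named after its values were seen, had 139 and 124 CPM in mutants and 151 and 150 CPM in controls. The change was -0.19 ± 0.06 (edgeR adjusted p = 0.00845), and the call was lost without mutant replicate 2 (-0.10, adjusted p = 0.204), with upper quartile scaling (-0.11, 0.0971) and with library totals alone (-0.05, 0.442). The risers were Mdm4 (0.68), a relative of Mdm2 that holds p53 inactive, the damage kinase genes Atm (0.44) and Atr (0.18), and Chek2 (0.24), a kinase downstream of Atm. Mdm4 had 21.9 and 25.3 CPM in mutants and 14.3 and 14.9 CPM in controls (edgeR adjusted p = 1.25e-05). The rise of Atr was not stable: DESeq2 gave adjusted p = 0.0845, and leaving out control replicate 1, mutant replicate 1 or mutant replicate 2 gave 0.465 (0.07), 0.115 (0.19) or 0.123 (0.18). The furthest falls were those of Smyd2 (-0.68), a methyltransferase that acts on p53, Ppm1d (-0.34), a phosphatase that p53 induces and that reverses its activation, and Setd8 (-0.31), a methyltransferase of histone H4 and p53. Setd8 was not called with library totals alone (-0.17, adjusted p = 0.092) or without mutant replicate 2 (-0.26, adjusted p = 0.0547). Cdkn2a, Trp63 and Trp73 did not pass the filter on low counts; Cdkn2a had 4 and 2 counts in mutants and 1 and 0 in controls, Trp73 had 8 and 5 in mutants and 4 and 1 in controls, and Trp63 had 0 in every library.

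Genes listed here as other p53 targets were divided. Of 16 tested genes of arrest and repair, 7 rose, 6 fell and 3 were not called (Rrm2b, Ckap2 and Mgmt), with a median of 0.27. Over all tested genes, 28.3% were called higher and 29.2% lower. The largest rises were those of Ccng2 (3.37), the gene of the other G-type cyclin, Plk2 (1.61), a polo-like kinase, and Polk (1.35), a DNA polymerase that copies past damage. Ccng2 had 39.1 and 39.6 CPM in mutants and 3.91 and 3.67 CPM in controls (edgeR adjusted p = 5.39e-14). Whether its rise depends on p53 was not tested. The largest falls were those of Btg2 (-0.86), an antiproliferative gene, Gadd45a (-0.74), a DNA damage response gene, and Sesn2 (-0.64), a stress-induced regulator of mTORC1. Btg2 had 44.2 and 46.6 CPM in mutants and 81.9 and 82.3 CPM in controls (edgeR adjusted p = 8.48e-09). With library totals alone 9 of these genes rose and 4 fell, with Rrm2b (0.63, adjusted p = 0.0311) and Ckap2 (0.19, adjusted p = 0.0378) among the risers; Rrm2b was also called without mutant replicate 1 (0.77, adjusted p = 0.033). Plk2 reached the filter level of 0.417 CPM in both mutant libraries and 1 control library, so it was tested through the mutants. Zfp365 was too scarce to test.

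Of 8 tested p53 targets of apoptosis outside the 10 genes, 1 rose, 3 fell and 4 were not called, with a median of -0.08. That median became 0.06 with library totals alone. Among all tested genes, 28.3% were called higher and 29.2% lower. Apaf1, which forms the caspase-activating apoptosome, rose (0.54), with 75.9 and 76.2 CPM in mutants and 52.1 and 52.6 CPM in controls. Lrdd (-0.60), which encodes the death domain protein Pidd1, Bid (-0.32), a BH3-only protein, and Siva1 (-0.24) fell; Siva1 was not called with upper quartile scaling (adjusted p = 0.0705), with library totals alone (0.248) or without mutant replicate 2 (0.0844). Bax (-0.04), Ei24 (0.03), Rps27l (-0.12) and Tnfrsf10b (0.63 ± 0.42) were not called. Rps27l was called lower without control replicate 2 (-0.29, adjusted p = 5.96e-06), with no filter beyond 1 count (-0.16, adjusted p = 0.00767) and with the replicate block (-0.13, adjusted p = 0.00511), and Ei24 was called higher with library totals alone (0.17, adjusted p = 0.00954). Fas and Dram1 were too scarce to test.

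Of 12 tested p53 targets of metabolism and signalling, 7 rose, 3 fell and 2 were not called (Ak1 and Dcxr), with a median of 0.30. The shares over all tested genes were 28.3% higher and 29.2% lower. Ddit4 (3.33), which encodes an inhibitor of mTORC1, had 25.7 and 22.9 CPM in mutants and 2.62 and 2.20 CPM in controls (edgeR adjusted p = 1.85e-12). 9630033F20Rik (3.10), the older symbol of Tigar, which lowers fructose-2,6-bisphosphate and with it glycolysis, had 26.2 and 27.7 CPM in mutants and 3.05 and 3.21 CPM in controls (edgeR adjusted p = 8.65e-13). Ephx1 (2.13), an epoxide hydrolase gene, came next. Of the 7 risers, 2 (Ephx1 and Sulf2) reached the filter level in both mutant libraries and in fewer than 2 control libraries, so they were tested through the mutants. The falls were those of Prkab1 (-0.33), a subunit of AMP-activated kinase, Tsc2 (-0.24), an inhibitor of mTORC1 signalling, and Fdxr (-0.22), a mitochondrial reductase. Tsc2 was not called with library totals alone (-0.10, adjusted p = 0.0932). Fdxr was not called with library totals alone (-0.09, adjusted p = 0.36), upper quartile scaling (-0.15, adjusted p = 0.116) or DESeq2 (-0.23, adjusted p = 0.0716), nor without control replicate 1 (-0.18, adjusted p = 0.109), mutant replicate 1 (-0.25, adjusted p = 0.0508) or mutant replicate 2 (-0.19, adjusted p = 0.118). Gdf15 was too scarce to test.

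**Figure D3:**
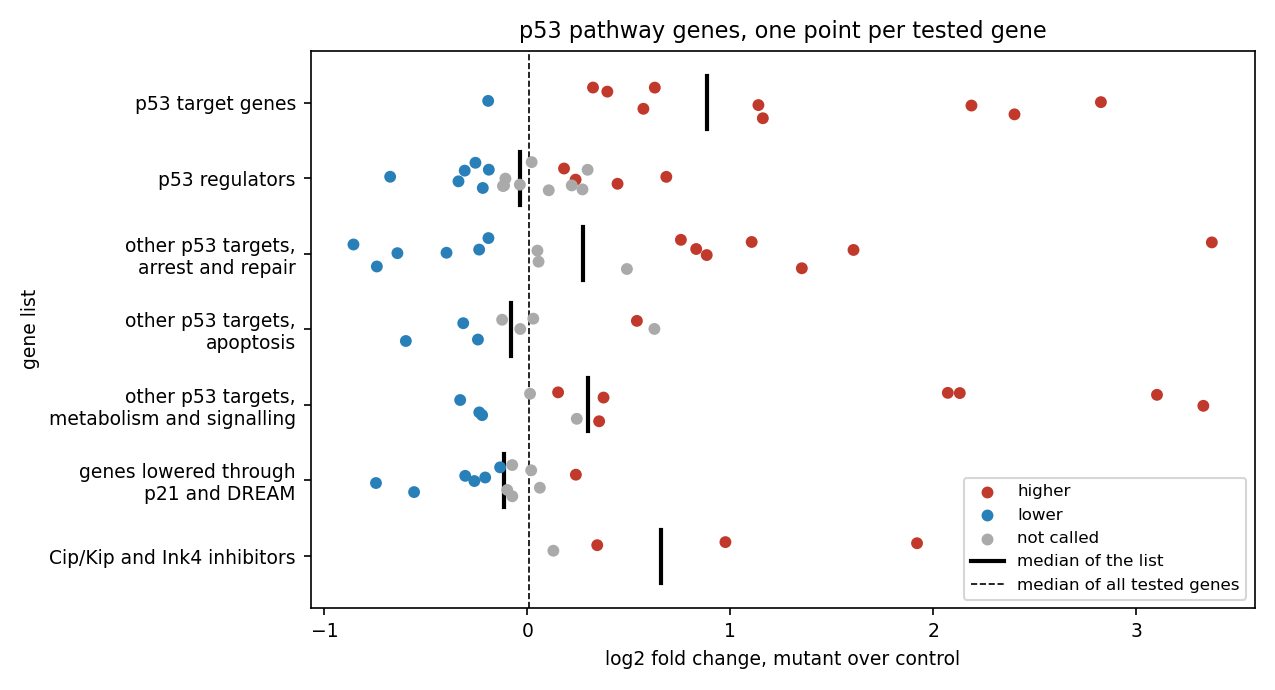
Log2 fold change of mutant over control for each tested gene of 7 lists of the p53 pathway, coloured by whether it was called higher, lower or not called in mutants, with the median of each list (bar) and of all tested genes (dashed line). The p53 target genes have a median of 0.88, the other target lists hold genes on both sides, and the list of genes lowered through p21 has a median of -0.12.

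Downstream of p21, the repressor complex DREAM keeps late cell cycle genes off when cyclin-dependent kinases are inhibited. Of 12 such genes, 6 fell, 1 rose and 5 were not called, with a median of -0.12. The share called was close to the 57.5% of all tested genes, of which 29.2% were lower and 28.3% higher. With library totals alone 4 fell and 2 rose, and the median was 0.02. Cdc20 (-0.75), an activator of the anaphase-promoting complex, had 101 and 108 CPM in mutants and 194 and 154 CPM in controls (edgeR adjusted p = 0.00622). Plk1 (-0.56) and Ccna2 (-0.31), genes of a mitotic kinase and of cyclin A2, also fell, and Kif23 (0.24), a kinesin gene of cytokinesis, rose. Cdk1 (0.02), Ccnb1 (0.06), Ccnb2 (-0.10), Cdc25c (-0.07) and Cenpa (-0.07) were not called. Cdk1 was called higher with library totals alone (0.16, adjusted p = 0.0121), Ccnb2 lower with no filter beyond 1 count (-0.14, adjusted p = 0.011) and with the replicate block (-0.10, adjusted p = 0.0155), and Cenpa lower without control replicate 2 (-0.21, adjusted p = 0.000672) and, at the threshold, with no filter beyond 1 count (-0.11, adjusted p = 0.050).

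Other genes of cyclin-dependent kinase inhibitors were also higher where they were called. Of 4 tested, 3 rose, where 28.3% of all tested genes were called higher. Cdkn2b (p15) had 4.42 and 5.15 CPM in mutants and 1.21 and 1.28 CPM in controls. It changed by 1.92 ± 0.21, Cdkn1b (p27) by 0.98 and Cdkn1c (p57) by 0.34. Cdkn1b had 55.7 and 54.5 CPM in mutants and 30.3 and 25.7 CPM in controls (edgeR adjusted p = 4.04e-08). The call of Cdkn1c was lost with DESeq2 (adjusted p = 0.124) and when control replicate 2 (adjusted p = 0.0516) or mutant replicate 2 (adjusted p = 0.104) was left out. Cdkn2c (0.13) was not called, but was higher with library totals alone (0.27, adjusted p = 0.0153) and without control replicate 1 (0.25, adjusted p = 0.0201), and Cdkn2a and Cdkn2d were too scarce to test. Cdkn1a, with 2.83 ± 0.10, changed by more than any of these 3, though the difference between genes was not tested.

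Markers of other cell types took larger shares of counts in the mutant libraries, as did the 10 genes together. These are shares of library totals without the TMM factors, which were 1.052 and 1.045 in mutants and 0.952 and 0.956 in controls. Mutant shares therefore stand higher beside control shares than they would on the TMM scale. Over all tested genes, 28.3% were called higher, and 11.7% were called and at least 2-fold higher. Granulocyte and monocyte markers took 0.0204% and 0.0196% of counts in mutants, against 0.00608% and 0.00633% in controls. Of these markers, 9 of 12 tested were higher, Elane was lower, and Ctsg (-0.53) and Cd68 (0.33) were not called. The highest of them in mutants was Sfpi1, with 84.9 and 80.5 CPM in mutants and 12.4 and 8.76 CPM in controls. Megakaryocyte markers took 0.0385% and 0.0382% in mutants and 0.0115% and 0.0112% in controls, with 8 of 10 higher and Vwf lower. Hepatoblast markers took 0.144% and 0.143% in mutants and 0.0973% and 0.0962% in controls, with 8 of 12 higher and none lower. Most of the hepatoblast sum was Afp (0.56) and Alb (0.38). Endothelial markers took 0.0203% and 0.0200% of counts in mutants and 0.0184% and 0.0182% in controls. This gap is about what the scaling factors alone would give, so no rise of the sum is shown on the TMM scale. The endothelial sum is mostly Egfl7 (141 and 140 CPM in mutants, 151 and 149 CPM in controls, not called). By gene, 5 of 10 were higher, all by at least 2-fold and led by Tek (3.05), Eng was lower, and the median was 0.68. Mesenchymal markers took 0.00284% and 0.00258% in mutants and 0.000796% and 0.000798% in controls, with 8 of 10 higher, and lymphoid markers 0.00137% and 0.00129% in mutants and 0.000669% and 0.000719% in controls, with 2 of the 3 tested higher. Of the higher markers, 5 mesenchymal, 2 lymphoid and 2 granulocyte and monocyte genes reached the filter level in both mutant libraries and in fewer than 2 control libraries, so these counts lean upward. No marker in these 6 lists was at 0 in all 4 libraries. Together the 10 p53 targets took 0.0543% and 0.0517% of counts in mutants and 0.0357% and 0.0368% in controls. These marker values do not show whether other cell types were present or whether the progenitors themselves held more of these transcripts. Any link to the changes of the p53 targets was not tested.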

How the data were processed

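Per the file headers, the deposited files hold integer read counts per gene (treated as raw, as library sums differ) and the authors' own test results, with a log2 fold change and p-values for each gene. FastQC, Bowtie and edgeR with mm9 are named in the submitters' processing notes; versions, strand and the handling of multiply mapped reads are not stated in the sources. The columns named WT were assigned to the control samples as the only group besides the mutant. Of 35939 rows, 12 held NA and were left out.

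Counts were analysed with edgeR 4.0.16 (R 4.3.3) by filterByExpr, TMM, estimateDisp, robust glmQLFit, glmQLFTest, two-sided, and Benjamini-Hochberg adjustment over 13140 genes. Standard errors were obtained by dividing each log2 fold change by the square root of its F. TMM factors ran from 0.952 to 1.05, and the common dispersion was 0.00232. Labels call the libraries of a group biological replicates, each a pool. Chi-square per gene was 3.67 between mutant and 5.76 between control libraries, over 10006 genes, so none was treated as a duplicate. An exact permutation test of 2 against 2 cannot go below 0.33. In simulated counts (12955 genes tested) the fit recovered 42 of 67 at 1.5-fold, 49 of 67 at 2-fold and 66 of 66 at 4-fold, with 3 false calls. Only those genes were changed, up or down at random, whereas 57.5% of genes were called in the data. The recovery and the false calls therefore need not carry over to this comparison.

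The 10 genes and all lists (164 entries, all found by symbol or older symbol) were chosen with earlier results of these data known, so list counts are descriptions. Named genes were the 10, Rcor1, up to 3 called risers and 3 called fallers of each list, all members of counts of 5 or fewer, and the 3 genes nearest to Cdkn1a. Alternatives were RLE, upper quartile and total scaling, 2 other filters, limma-voom (limma 3.58.1), DESeq2 1.42.0, the exact test of edgeR, a 2-fold threshold, a replicate block and each library left out; with 1 library left in a group, it is assumed to vary like the others.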

Additional observations from a re-analysis of the deposited data

How the results depend on the processing

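Over 130 refits of the 10 p53 target genes (13 alternatives each), 126 kept the direction and the side of the threshold, 4 lost the call (Aen in 3, Phlda3 in 1) and none changed sign. With each library left out, 8 to 10 of the 10 genes were called, 8 to 9 of them higher; all tested genes called ran from 6234 to 7394, with 3034 to 3520 higher and 3200 to 3874 lower. With a 2-fold threshold, 1769 of all genes were called (1532 higher, 237 lower), 5 of the 10 genes (5 higher), 0 p53 regulators, 4 arrest and repair targets, 0 apoptosis targets, 4 metabolism and signalling targets, 0 genes lowered through p21 and 1 kinase inhibitor. With library totals alone, 5112 genes were higher and 2553 lower, against 3723 and 3835; this follows from where the scaling centres the genes.

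Genes that changed sign were not called when they did. Their log2 fold changes were, with library totals alone, 0.10 for Bax, 0.037 for Ccnb2, 0.062 for Cdc25c, 0.063 for Cenpa and 0.013 for Rps27l; with upper quartile scaling, 0.041 for Bax, 0.0016 for Cdc25c and 0.0021 for Cenpa; and with no filter beyond 1 count, -0.019 for Cdk1, -0.025 for Dcxr and -0.0090 for Ei24. With each library left out, the range was -0.069 to 0.17 for Ccnb1, -0.21 to 0.053 for Cenpa, -0.045 to 0.083 for Cdk1, -0.014 to 0.031 for Dcxr, -0.018 to 0.078 for Ei24, -0.29 to 0.044 for Rps27l and -0.0046 to 0.25 for Cdkn2c.

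With the replicate number as a block, 10 of the 10 genes were called (9 higher), and 8402 of all genes, with 4135 higher and 4267 lower. The numbers are not stated to pair samples; deviations of same-numbered libraries correlated at 0.225 over genes. At these depths Eda2r, with 8 and 10 control counts, had the widest standard error of the 10 genes.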
